A study of Xenopus laevis with 90 samples.

Results

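The SoxB1 genes *sox3* and *sox2* were followed here through 3 gene copies, *sox3.L*, *sox3.S* and *sox2.L*, chosen by name as the *sox3* and *sox2* entries measured in both frogs. They are 3 of 37504 genes measured in embryos of frog 1 and of 36504 in embryos of frog 2. In the RefSeq annotation of assembly Xenopus_laevis_v10.1 all are protein-coding, *sox3.L* on chromosome 8L from 46991470 to 46993062, *sox3.S* on chromosome 8S from 63299041 to 63300658 and *sox2.L* on chromosome 5L from 114959594 to 114960783. L and S mark the long and short homeologous chromosomes of the allotetraploid frog *Xenopus laevis*. No *sox2.S* entry was found, and RefSeq gives that name as a synonym of *sox2.L*. The copies of *sox3* are alike in sequence, so that reads may have been split between them wrongly.

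SoxB1 proteins are transcription factors of the HMG-box family that bind DNA next to partner proteins, most often POU factors, and act mainly as activators. In the frog, *sox3* mRNA is laid down in the egg, and the Sox3 protein acts with Pou5f3 proteins on enhancers during zygotic genome activation (ZGA), the onset of transcription in the embryo. *sox2* is activated in the embryo and marks the future neural ectoderm, where both genes keep cells in a progenitor state.

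The study asked how loss of H3K4me3 before or through ZGA alters transcription. Embryos were injected as zygotes with mRNA for a histone demethylase of H3K4, Kdm5b, for histone H3.3 and for TIR1, the plant receptor that directs tagged proteins to degradation when auxin is present. Treated embryos received 11 ng Kdm5bwt (active enzyme), 345 pg H3.3K4M (a mutant without the methylated lysine) and 5 ng TIR1, and control embryos received 4 ng Kdm5bci (catalytically inactive), 345 pg H3.3wt and 5 ng TIR1. Doses of Kdm5b mRNA were thus unequal, chosen by the study to give equal protein. Embryos of both arms either stayed without auxin (the persistent scheme) or were moved to 500 µM auxin before ZGA (the window scheme), and wild type embryos were not injected and had no auxin. Whole embryos were collected at 5.5, 6.5 and 7.5 hours post fertilization (hpf), as pools of 3 siblings with 3 pools in each of 15 groups from each of 2 frogs, 90 libraries in all. All embryos were of WT genotype by their labels, and the Kdm5b construct was a part of the mouse protein.

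Levels are given as TPM, a transcript measure in which each gene's abundance is divided by its length and scaled to a fixed total. Changes are differences of log2(TPM + 1) between groups of 3 libraries, fitted in each frog by limma over all genes, and a gene was called at a Benjamini-Hochberg adjusted p under 0.05. With 3 pools of siblings in a group, p-values measure the spread between pools of 1 frog. For means and differences over both frogs, p-values rest on that same spread between pools and not on the spread between frogs. The frogs were also used in separate experiments, so differences between frogs and between experiments cannot be told apart. Comparisons that share a control group are not independent of each other. Because TPM are shares, the median change of all genes is given wherever it lay more than 0.1 from 0 beside a called member. TPM carry no read depth, so the counts behind low values are unknown. Ribosomal RNA still made up 4.04 to 37.4% of TPM in frog 1 and 1.77 to 15.6% in frog 2.

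*sox3* was abundant at the first stage and *sox2* was barely present. At 5.5 hpf the wild type pools of frog 1 held *sox3.L* at 260, 228 and 219 TPM. In frog 2 its levels were 432, 465 and 475 TPM. All pools of frog 2 thus lay above all pools of frog 1. Ribosomal RNA made up 20.6 to 37.4% of TPM in these pools of frog 1 and 2.49 to 4.07% in those of frog 2. Protein-coding genes made up 46.8 to 58.3% and 74.0 to 74.9%. The part of this in the gap between the frogs was not tested.

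*sox3.S* followed the same order, with 202, 166 and 158 TPM in frog 1 at 5.5 hpf. In frog 2 it measured 336, 353 and 347 TPM. By mean level *sox3.L* ranked 163 of 32085 protein-coding genes in frog 1 and 120 of 31350 in frog 2, and *sox3.S* ranked 241 and 183. No earlier stage was analysed here, so how much of this RNA came from the egg was not measured.

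*sox2.L* was close to or at 0 in the same wild type libraries. Its levels at 5.5 hpf were 0.147, 0.262 and 0.458 TPM in frog 1, and in frog 2 they were 0, 0.285 and 0.634 TPM. The *sox3* copies together held at least 98.9% of the TPM of the SoxB1 genes *sox1*, *sox2* and *sox3* in each of the 90 libraries.

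**Figure D1:**
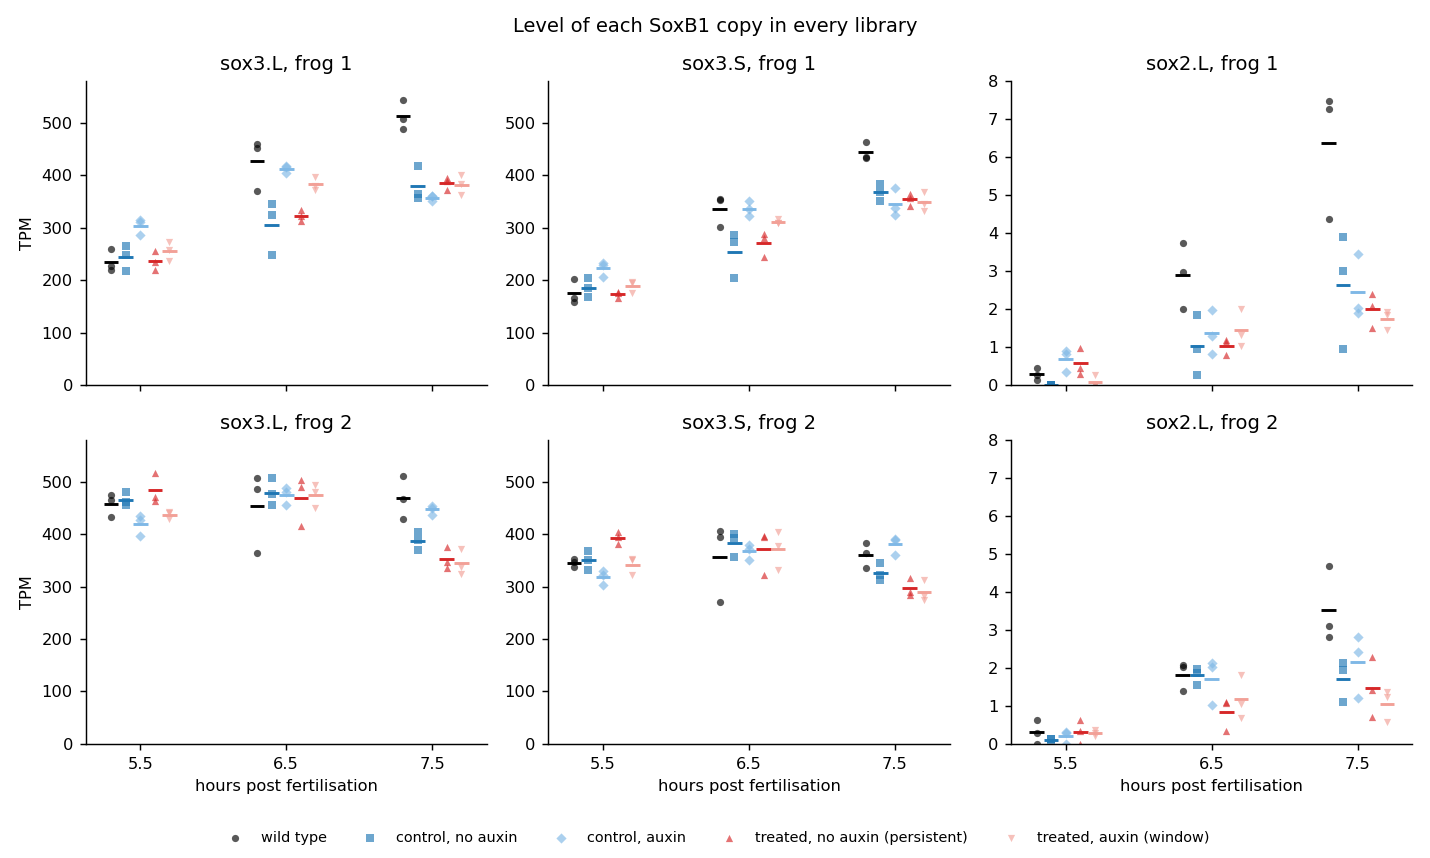
TPM of *sox3.L*, *sox3.S* and *sox2.L* in each library of frog 1 (top) and frog 2 (bottom) against hours post fertilization. Each point is 1 pool of 3 embryos and each bar the mean of 3 pools. The wild type pools of *sox2.L* at 7.5 hpf, 4.36 to 7.47 TPM in frog 1 and 2.82 to 4.68 TPM in frog 2, lie above those of every injected group.

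*sox2.L* rose in wild type embryos of both frogs. Its levels in frog 1 reached 3.75, 2.99 and 2.00 TPM at 6.5 hpf and 7.26, 7.47 and 4.36 TPM at 7.5 hpf. In frog 2 they reached 2.02, 1.38 and 2.06 TPM at 6.5 hpf and 2.82, 4.68 and 3.09 TPM at 7.5 hpf. No stage overlapped the stage before it in either frog.

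From 5.5 to 7.5 hpf, *sox2.L* increased by 2.49 (SE 0.27) on the log2 scale in frog 1 (limma adjusted p = 1.9e-09). In frog 2 the increase was 1.8 (SE 0.25, adjusted p = 4.6e-08). The median change of all genes over the same time was 0.39 in frog 1 and -0.69 in frog 2, and relative to it *sox2.L* rose by 2.1 and 2.49. In the contrast from 5.5 to 7.5 hpf, genes called higher made up 56.2% of those tested in frog 1 and 8.37% in frog 2.

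The copies of *sox3* rose in TPM in frog 1. *sox3.L* reached 508, 544 and 489 TPM at 7.5 hpf, a log2 change of 1.12 (SE 0.094, adjusted p = 4.9e-12) from 5.5 hpf. *sox3.S* reached 433, 464 and 436 TPM, a change of 1.34 (SE 0.097, adjusted p = 9.0e-14). All pools of both copies at 7.5 hpf lay above all pools at 5.5 hpf.

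In frog 2 neither *sox3* copy was called between these stages. *sox3.L* stood at 468, 511 and 428 TPM at 7.5 hpf, and its change was 0.03 (95% interval -0.14 to 0.20, adjusted p = 0.709). *sox3.S* stood at 364, 382 and 335 TPM, a change of 0.06 (interval -0.14 to 0.26, adjusted p = 0.575). Wild type pools of the first and last stage overlapped for both copies.

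The difference between the frogs in the change from 5.5 to 7.5 hpf was itself called for both *sox3* copies in a joint fit. It was -1.09 (SE 0.13, adjusted p = 1.6e-11) for *sox3.L* and -1.28 (SE 0.14, adjusted p = 2.5e-12) for *sox3.S*, frog 2 minus frog 1. Relative to the median change of all genes in the same frog, however, *sox3.L* rose by 0.73 in frog 1 and by 0.72 in frog 2, and *sox3.S* by 0.96 and 0.74. With each library rescaled by median ratios, the change of *sox3.L* in frog 2 was 0.84 (adjusted p = 1.9e-10) and that of *sox3.S* 0.87 (adjusted p = 3.2e-11). Those were the highest of 14 alternative fits for each copy in frog 2, and the lowest were -0.017 and 0.030. For *sox3.L* 9 of the 14, and for *sox3.S* 11, kept the direction and stayed without a call. In frog 2 as deposited, 16163 of 20277 genes were called lower over this time.

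**Figure D2:**
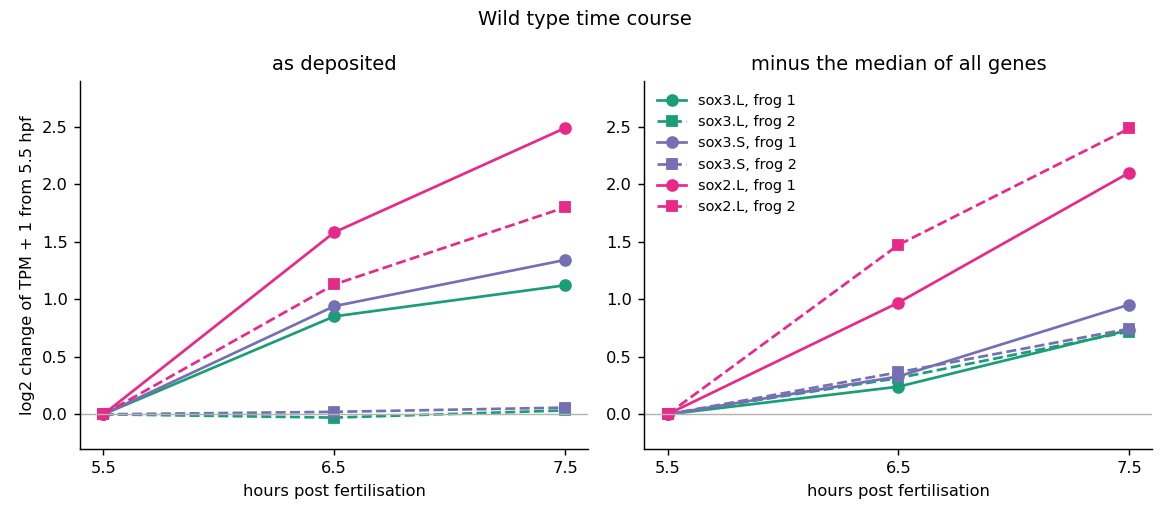
Change of log2(TPM + 1) from 5.5 hpf in wild type embryos for each gene (colours) and frog (solid line with circles, frog 1, dashed line with squares, frog 2), as deposited on the left and after the median change of all genes was subtracted on the right. The *sox3* lines of the frogs lie apart on the left, near 1.12 and 1.34 against 0.03 and 0.06 at 7.5 hpf, and lie together between 0.72 and 0.96 on the right.

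The hourly steps of *sox3* in frog 1 depended on whether the shift of all genes was taken off. From 5.5 to 6.5 hpf, *sox3.L* rose by 0.85 and *sox3.S* by 0.94 in frog 1 (adjusted p = 1.4e-08 and 3.0e-09), against a median of 0.61 over all genes. From 6.5 to 7.5 hpf the changes were 0.27 and 0.40 (adjusted p = 0.0271 and 0.00197), while the median of all genes was -0.23. Relative to these medians *sox3.L* stood at 0.24 and then 0.50, and *sox3.S* at 0.33 and then 0.63, so that the earlier step was the larger as deposited and the smaller relative to the median. After median-ratio rescaling the earlier step of *sox3.L* was 0.14 and no longer called (adjusted p = 0.227).

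Wild type pools of frog 2 at 6.5 hpf held *sox3.L* at 507, 365 and 486 TPM and *sox3.S* at 405, 270 and 394 TPM. Replicate 2.2 was thus the lowest for both copies, and ribosomal RNA ran from 1.77 to 15.6% of TPM in these pools. Both hourly steps of frog 2 rest on them. In frog 2 neither *sox3* copy was called at either step as deposited, where the medians of all genes were -0.34 and -0.35. Relative to them *sox3.L* stood at 0.32 and 0.41 and *sox3.S* at 0.37 and 0.39.

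*sox2.L* was called at both steps in both frogs. Its changes were 1.58 and 0.91 in frog 1 (adjusted p = 4.6e-06 and 0.00988) and 1.13 and 0.67 in frog 2 (adjusted p = 0.000239 and 0.0160). Relative to the medians of all genes the steps were 0.97 and 1.13 in frog 1 and 1.47 and 1.02 in frog 2. Genes called higher made up 75.8% of all tested in frog 1 and 5.33% in frog 2 at the earlier step, and 7.58% and 6.62% at the later one.

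The balance of the *sox3* copies moved little. *sox3.L* held 57.4 ± 1.0% (SD, n = 3) of the summed *sox3* TPM at 5.5 hpf and 53.6 ± 0.65% at 7.5 hpf in wild type frog 1, without overlap of the pools. In frog 2 the share was 57.0 ± 0.75% and 56.5 ± 0.58% at these stages. Across all 90 libraries the share ranged from 48.9 to 59.1%. These shares rest on the authors' assignment of reads between similar copies.

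The window scheme asks what remains at ZGA when the depletion is confined to the time before it, and compares treated with control embryos that both had auxin. At 7.5 hpf the *sox3* copies were lower in treated embryos of frog 2 and not of frog 1. In frog 2, *sox3.L* measured 324, 337 and 371 TPM in treated pools against 450, 454 and 437 TPM in control pools. *sox3.S* measured 274, 282 and 313 TPM against 361, 389 and 391 TPM. The treated and control pools did not overlap for either copy. These control pools with auxin also lay above the control pools without it, with means of 447 against 388 TPM for *sox3.L*. For *sox3.S* the control means were 380 and 327 TPM. Neither change was called (0.21 and 0.22, limma adjusted p = 0.264 and 0.286), and the median of all genes was 0.11. Treated means with and without auxin were 344 and 353 TPM for *sox3.L*, and 289 and 297 TPM for *sox3.S*.

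The fall amounted to -0.38 (SE 0.084, adjusted p = 0.00578) for *sox3.L*, or 23.0% of the control mean, and to -0.40 (SE 0.097, adjusted p = 0.0146) for *sox3.S*. Genes called lower made up 1.87% of those tested in frog 2 and 0.579% in frog 1. The *sox3.L* call was lost when replicate 2.1 or 2.2 was left out of the fit (-0.33 and -0.35, adjusted p = 0.232 and 0.12). The *sox3.S* call was lost without replicate 2.1, 2.2 or 2.3 (-0.39, -0.36 and -0.43, adjusted p = 0.226, 0.178 and 0.0641). Leaving out a replicate removed the pool of that number from every group of the frog, so that these fits also held fewer libraries.

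In frog 1, *sox3.L* stood at 362, 384 and 402 TPM in treated pools and at 361, 360 and 351 TPM in control pools at 7.5 hpf. The treated pools lay above the control pools, but the change of 0.10 (interval -0.10 to 0.29, adjusted p = 0.988) was not called. *sox3.S* stood at 332, 345 and 369 TPM against 377, 338 and 325 TPM, with overlap and a change of 0.01 (interval -0.19 to 0.21, adjusted p = 0.992). The difference between the frogs, frog 2 minus frog 1, was -0.47 for *sox3.L* and -0.41 for *sox3.S* and was not called (adjusted p = 0.0766 and 0.305). The mean over both frogs was -0.14 (interval -0.27 to -0.015, limma adjusted p = 0.286) and -0.19 (interval -0.33 to -0.055, adjusted p = 0.129). Neither mean was called, though neither interval includes 0.

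*sox2.L* was not called in the window scheme at 7.5 hpf. Treated pools held 1.46, 1.85 and 1.93 TPM in frog 1 against 1.90, 2.03 and 3.44 TPM in control pools. In frog 2 they held 1.24, 0.571 and 1.35 TPM against 2.42, 2.81 and 1.21 TPM. The pools overlapped in both frogs.

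The changes of *sox2.L* were -0.31 (interval -0.85 to 0.23, adjusted p = 0.988) and -0.60 (interval -1.1 to -0.10, adjusted p = 0.241). The interval of frog 1 includes 0 and that of frog 2 does not. The mean over both frogs was -0.46 (interval -0.83 to -0.086, limma adjusted p = 0.209). The difference between the frogs, frog 2 minus frog 1, was -0.29 and was not called.

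At the earlier stages of the window scheme no member was called, and the changes at 5.5 hpf ran from -0.63 to 0.11. Genes called in either direction made up 0.393% in frog 1 and 0.0148% in frog 2 at 5.5 hpf, and 0.105% and 1.32% at 6.5 hpf. In frog 1 at 5.5 hpf the treated pools of *sox3.L* (259, 238 and 273 TPM) all lay below the control pools (315, 287 and 312 TPM). That change was -0.25 (interval -0.44 to -0.06, adjusted p = 0.284), beside a median of -0.14 over all genes.

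The persistent scheme compares treated with control embryos without auxin, so that the injected proteins act through ZGA. None of the 3 members was called at any stage in either frog. At 7.5 hpf *sox3.L* measured 390, 394 and 373 TPM in treated and 357, 364 and 417 TPM in control pools of frog 1. In frog 2 it measured 347, 336 and 375 TPM against 370, 404 and 389 TPM. The pools overlapped in both frogs.

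The *sox3.L* changes at 7.5 hpf were 0.03 (interval -0.16 to 0.22, adjusted p = 0.957) in frog 1 and -0.14 (interval -0.31 to 0.03, adjusted p = 0.231) in frog 2. *sox3.S* changed by -0.05 (interval -0.25 to 0.15, adjusted p = 0.912) and -0.14 (interval -0.34 to 0.06, adjusted p = 0.295). The median change of all genes in frog 2 was 0.16, and relative to it both copies stood at -0.30. After median-ratio rescaling both were called lower in frog 2, by -0.33 each (adjusted p = 0.0117 and 0.00774). In 13 of 14 alternatives for each copy the direction was kept without a call. The mean over both frogs was -0.055 for *sox3.L* and -0.095 for *sox3.S* (limma adjusted p = 0.520 and 0.307).

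*sox2.L* held 2.39, 2.1 and 1.5 TPM in treated against 0.964, 3.90 and 3.01 TPM in control pools of frog 1 at 7.5 hpf. In frog 2 it held 0.699, 2.29 and 1.41 TPM against 2.12, 1.93 and 1.1 TPM. These pools overlapped, and the changes were -0.19 (interval -0.73 to 0.36, adjusted p = 0.875) and -0.17 (interval -0.67 to 0.33, adjusted p = 0.616). At 6.5 hpf in frog 2 the treated pools of *sox2.L* (1.1, 1.08 and 0.350 TPM) lay below the control pools (1.55, 1.98 and 1.88 TPM), with a change of -0.63 that was not called (adjusted p = 0.161). At 5.5 hpf in frog 1 the order was the opposite, with 0.982, 0.453 and 0.285 TPM in treated pools while control pools were listed at 0. That change of 0.63 (interval 0.085 to 1.17) was not called (adjusted p = 0.629).

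Genes called lower in the persistent scheme at 7.5 hpf made up 0.641% in frog 1 and 2.19% in frog 2. Those called higher numbered 11 of 20891 in frog 1 and 2633 of 20277 in frog 2. At 5.5 hpf genes called in either direction made up 0.0144% and 0.0197%, and at 6.5 hpf 0.0957% and 1.49%. The difference between the window and persistent effects at 7.5 hpf was not called for any member. In frog 2 it was -0.24 (interval -0.48 to -0.00085, adjusted p = 0.519) for *sox3.L* and -0.26 (interval -0.54 to 0.02, adjusted p = 0.528) for *sox3.S*. Over all genes this difference was called for 0.00957% in frog 1 and 0% in frog 2. There limma gave an unadjusted p below 0.05 for 1945 genes.

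**Figure D3:**
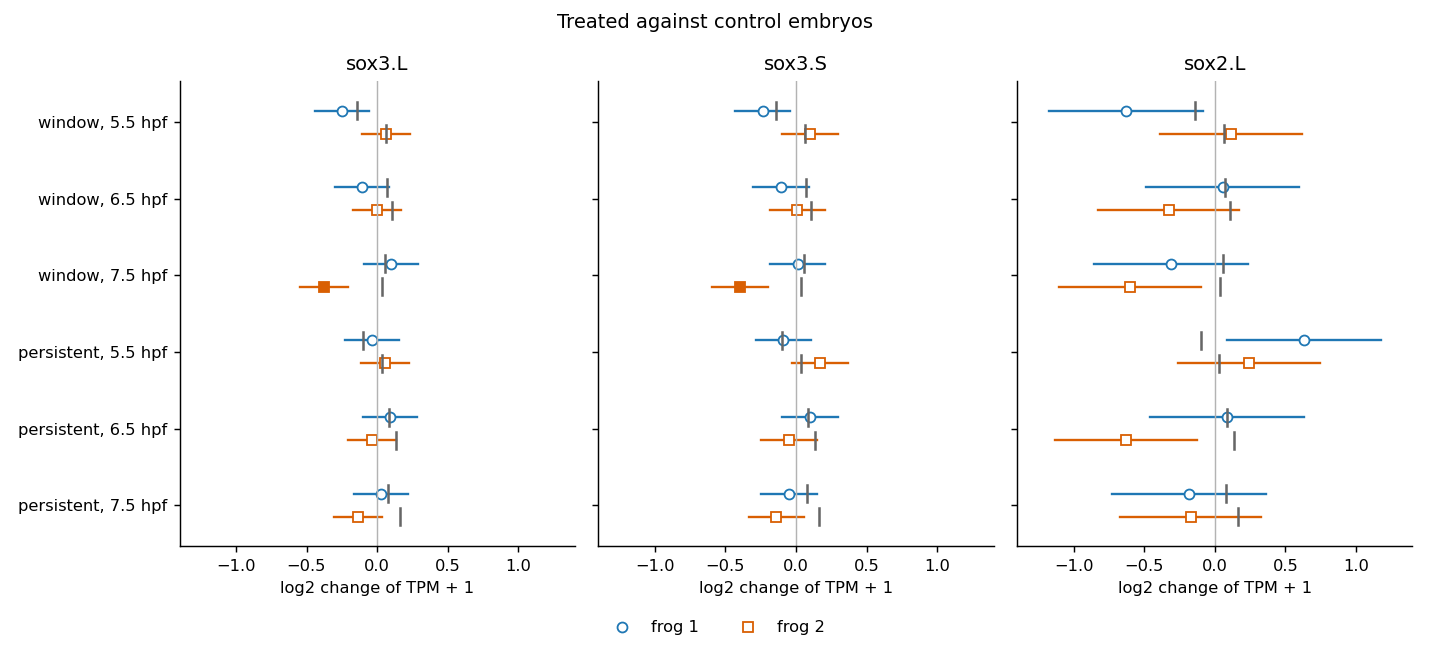
Log2 change of TPM + 1 in treated against control embryos for each gene, by scheme and stage, in frog 1 (blue circles) and frog 2 (orange squares). Lines are 95% intervals, filled symbols were called at an adjusted p under 0.05, and grey ticks mark the median change of all genes. The filled symbols are *sox3.L* and *sox3.S* in the window scheme of frog 2 at 7.5 hpf, at -0.38 and -0.40.

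Control injection was compared with wild type embryos, both without auxin, and *sox2.L* and *sox3.L* were lower after it in frog 1. At 7.5 hpf in frog 1, *sox2.L* measured 0.964, 3.90 and 3.01 TPM in control against 7.26, 7.47 and 4.36 TPM in wild type pools. In frog 2 it measured 2.12, 1.93 and 1.1 TPM against 2.82, 4.68 and 3.09 TPM. All control pools lay below all wild type pools in both frogs.

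*sox2.L* was called lower in frog 1 (-1.09, SE 0.27, adjusted p = 0.00791) and not in frog 2 (-0.74, interval -1.24 to -0.23, adjusted p = 0.150). The mean over both frogs was called (-0.91, SE 0.19, adjusted p = 0.000232), and the frogs' effects were not called different (0.36, adjusted p = 1). Without replicate 1.1 or 1.2 the change in frog 1 was -0.60 and -1.25 and was no longer called (adjusted p = 0.437 and 0.0972).

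*sox3.L* was also lower in control embryos at 7.5 hpf. Its control pools in frog 1 held 357, 364 and 417 TPM, all below the wild type pools of 508, 544 and 489 TPM. In frog 2 they held 370, 404 and 389 TPM, all below 468, 511 and 428 TPM. The changes were -0.44 (SE 0.094, adjusted p = 0.00183) in frog 1 and -0.27 (interval -0.44 to -0.10, adjusted p = 0.0898) in frog 2. In frog 2, 11 of 14 alternative fits stayed without a call, and the others, the joint fit among them, called it lower. The call in frog 1 was lost without replicate 1.1 or 1.2 (-0.40 and -0.37, adjusted p = 0.0590 and 0.461), and the mean over both frogs was called at -0.35 (adjusted p = 1.9e-05).

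*sox3.S* was not called at 7.5 hpf as deposited. It changed by -0.27 (interval -0.47 to -0.07, adjusted p = 0.161) in frog 1, where its control pools of 351, 368 and 384 TPM lay below the wild type pools of 433, 464 and 436 TPM. It was called lower in frog 1 in the 3 rescaled fits (-0.23, -0.25 and -0.27, adjusted p = 0.0374, 0.00341 and 0.0099) and with the copies summed (-0.36, adjusted p = 0.0143). In frog 2 the change was -0.14 (interval -0.34 to 0.06, adjusted p = 0.856) and the pools overlapped. Genes called lower at 7.5 hpf made up 1.47% in frog 1 and 1.02% in frog 2.

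At 6.5 hpf all 3 members were called lower in control embryos of frog 1, by -0.49 for *sox3.L*, -0.41 for *sox3.S* and -1.0 for *sox2.L* (adjusted p = 0.000911, 0.00682 and 0.0151). There the median of all genes was -0.25, genes called lower made up 16.8%, and the control pools varied from 9.27 to 29.9% ribosomal RNA against 6.69 to 8.65% in wild type. The control pools of *sox3.L* were 345, 324 and 249 TPM, of which the lowest, replicate 1.3, was also lowest for *sox3.S*. Leaving out replicate 1.3 from every group, wild type included, gave changes of -0.29, -0.22 and -1.19 (adjusted p = 0.214, 0.561 and 0.114). Without replicate 1.2 they were -0.49, -0.43 and -0.68 (adjusted p = 0.105, 0.137 and 0.176). All 3 calls were lost in both cases. None of the 3 calls was kept after median-ratio rescaling (-0.20, -0.12 and -0.78, adjusted p = 0.254, 0.62 and 0.23). The part of ribosomal RNA in this result was not tested by itself. In the fit without globin, H3.3 and ribosomal RNA genes together, *sox3.L* alone was still called. A fit of protein-coding genes alone also left ribosomal RNA out, and its values for this comparison are not given here. In frog 2 no member was called at 6.5 hpf, where 0.0542% of genes were called lower. The wild type pools of that comparison included the low replicate 2.2, at 365 TPM for *sox3.L*. At 5.5 hpf no member was called in either frog, and 0.426% and 0.0345% of genes were called in either direction.

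Auxin was compared in embryos of the same injection with and without it. In control embryos of frog 1 at 5.5 hpf all 3 members were called higher with auxin. *sox3.L* held 315, 287 and 312 TPM with and 217, 248 and 265 TPM without auxin, without overlap, and its change was 0.32 (adjusted p = 0.0134). *sox3.S* changed by 0.27 (adjusted p = 0.0320). *sox2.L* held 0.358, 0.890 and 0.835 TPM with auxin and was listed at 0 in the 3 pools without, a fitted change of 0.75 (adjusted p = 0.0300) that depends on the added constant.

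The median of all genes rose by 0.29 in this comparison, and genes called higher made up 38.7%. The pools with auxin held 11.4 to 11.9% ribosomal RNA and those without 20.6 to 24.9%. Relative to the median, *sox3.L* stood at 0.04 and *sox3.S* at -0.02, and after median-ratio rescaling they changed by -0.02 and -0.08 (adjusted p = 0.943 and 0.612). Rescaling left *sox2.L* at 0.77 without a call (adjusted p = 0.162), and its call was kept in 5 of 13 alternatives. Without replicate 1.1 none of the 3 was called (0.22, 0.16 and 0.90, adjusted p = 0.407, 0.45 and 0.273), *sox3.S* was also lost without replicate 1.2 (0.32, adjusted p = 0.0868), and *sox2.L* without replicate 1.2 or 1.3 (0.66 and 0.68, adjusted p = 0.142 and 0.117).

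At 6.5 hpf *sox3.L* and *sox3.S* were called higher in frog 1 by 0.44 and 0.42 (adjusted p = 0.00687 and 0.00989), beside a median of 0.27 and 21.9% of genes called higher, and neither call was kept after rescaling (0.14 and 0.11, adjusted p = 0.638 and 0.698). Both calls were also lost without replicate 1.2 (0.51 each, adjusted p = 0.138 and 0.142) or 1.3 (0.30 and 0.27, adjusted p = 0.126 and 0.17).

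In frog 2 no member was called for auxin in control embryos at any stage. Genes called higher there made up 0% at 5.5 and 0% at 6.5 hpf by limma. Unadjusted p-values below 0.05 were found for 1188 and 1741 genes. At 7.5 hpf no member was called in either frog, and 0.00957% and 0.00986% of genes were called in either direction. In frog 2, 3158 genes had an unadjusted limma p below 0.05 at that stage. The *sox3* pools of frog 2 with auxin nevertheless lay above those without there, with changes of 0.21 and 0.22. The median of all genes was 0.11, and relative to it *sox3.L* stood at 0.10 and *sox3.S* at 0.11.

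In treated embryos auxin gave 1 call, *sox3.L* in frog 1 at 6.5 hpf, with 380, 373 and 398 TPM with and 314, 322 and 334 TPM without auxin. That change was 0.25 (adjusted p = 0.0484) beside a median of 0.26 over all genes and 27.3% of genes called higher, and no member was called after rescaling. In frog 2 genes called higher at 6.5 hpf made up 0%, and 475 had an unadjusted limma p below 0.05. Genes called in either direction made up 20.4% and 0.00493% at 5.5 hpf and 0.0191% and 0.00986% at 7.5 hpf in frogs 1 and 2.

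**Figure D4:**
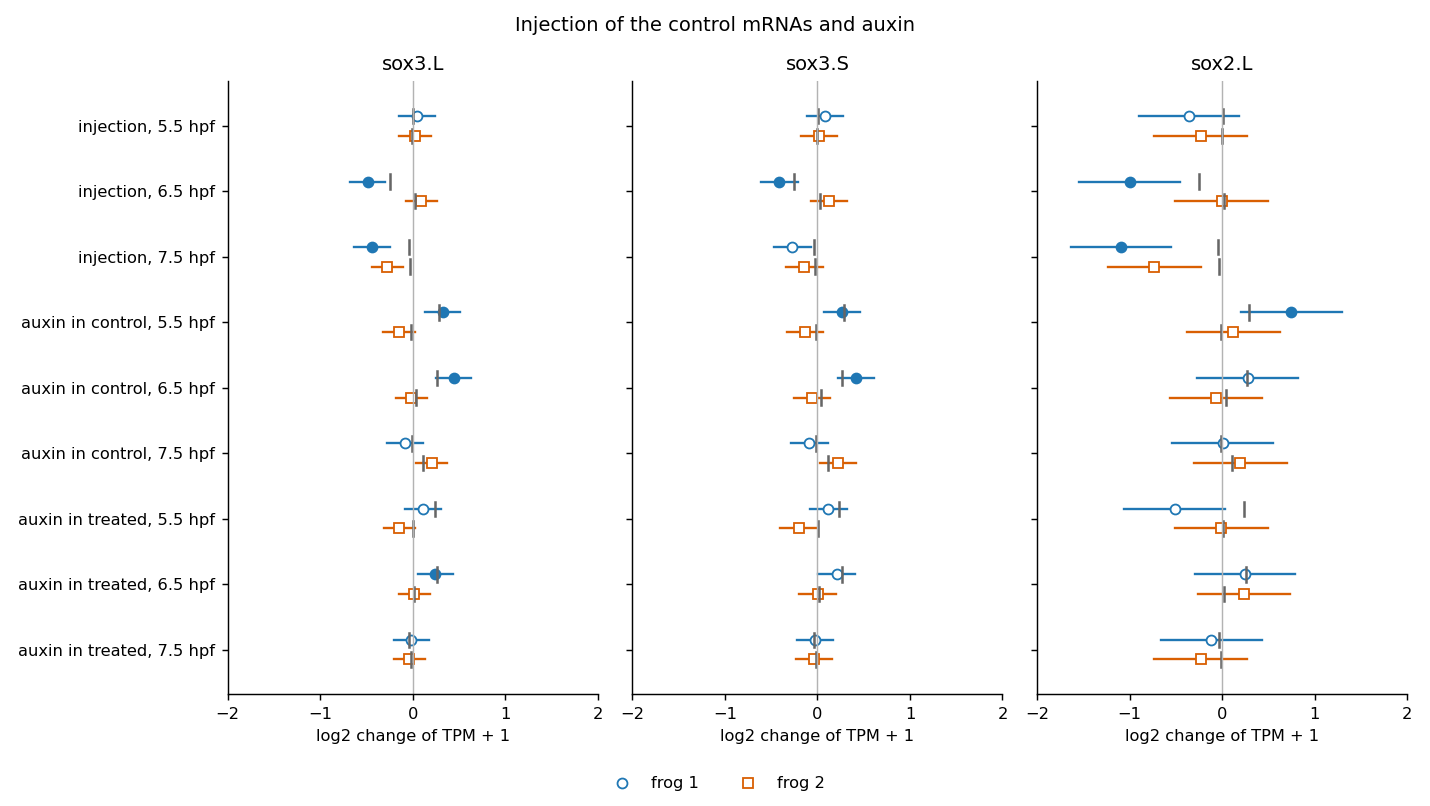
Log2 change of TPM + 1 for each gene in control against wild type embryos (injection) and with against without auxin in control and in treated embryos, in frog 1 (blue circles) and frog 2 (orange squares). Lines are 95% intervals, filled symbols were called at an adjusted p under 0.05, and grey ticks mark the median change of all genes. In frog 1 at 5.5 and 6.5 hpf the ticks lie at 0.24 to 0.29 for auxin, with the *sox3* symbols of control embryos at 0.32 and 0.27 and then at 0.44 and 0.42.

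In the order of the 15 group means, wild type at 7.5 hpf stood first for all 3 members in frog 1 and for *sox2.L* in frog 2, and its pools did not overlap those of the next group. For *sox3.L* and *sox3.S* in frog 2 the first group was treated without auxin at 5.5 hpf (483 and 393 TPM) and the last was treated with auxin at 7.5 hpf (344 and 289 TPM). All 14 neighbouring pairs of groups overlapped there for each copy, as did 10 of 14 for *sox3.L* and 11 of 14 for *sox3.S* in frog 1, and 13 of 14 for *sox2.L* in each frog.

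Of the wider SoxB1 family, *sox1.S* was the other copy with enough signal to test. It rose from 5.5 to 7.5 hpf in wild type embryos by 1.58 in frog 1 and 1.14 in frog 2 (adjusted p = 1.4e-09 and 8.7e-10). In the window scheme at 7.5 hpf it changed by 0.05 and -0.37 and was not called (adjusted p = 0.988 and 0.121). Neither copy of *sox21*, a SoxB2 repressor that opposes SoxB1 factors, was called in the window scheme of frog 1, and both were called lower in frog 2, *sox21.L* by -0.91 and *sox21.S* by -0.94 (adjusted p = 6.2e-05 and 0.00199). In the persistent scheme both were again called lower in frog 2 and neither in frog 1, with medians of -0.73 and -0.26. After control injection 1 of the 2 copies was called lower in each frog, with medians of -0.78 in frog 1 and -0.59 in frog 2. Over all genes, 0.579% and 1.87% were called lower in the window scheme of frogs 1 and 2. These shares were 0.641% and 2.19% in the persistent scheme and 1.47% and 1.02% after control injection. Both *sox21* copies were called higher in wild type from 5.5 to 7.5 hpf in each frog, so that all genes are not a like set. *sox1.S* and *sox21* were added after their values were seen.

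The Pou5f3 factors are the POU partners of Sox3. In the window scheme at 7.5 hpf *pou5f3.1.L* fell by 0.88 in frog 1 and by 1.37 in frog 2 (adjusted p = 0.0269 and 8.3e-05). *pou5f3.1.S*, *pou5f3.2.L* and *pou5f3.2.S* were called lower in frog 2, by -1.25, -0.53 and -0.69, and in frog 1 stood at -0.51, -0.42 and -0.39 without a call (adjusted p = 0.635, 0.166 and 0.542). *pou5f3.3.L* and *pou5f3.3.S*, present at 105 TPM or more in every group mean, were not called in either frog, at 0.17 and 0.23 in frog 1 and 0.01 and 0.06 in frog 2. Whether the changes of *sox3* and *pou5f3* differ was not tested.

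In the persistent scheme at 7.5 hpf *pou5f3.1.L* fell by 0.99 and 1.49 in frogs 1 and 2 (adjusted p = 0.00960 and 3.9e-05). *pou5f3.1.S* and *pou5f3.2.S* were called lower in frog 2 alone, at -1.17 and -0.52, and *pou5f3.2.L* was called in neither frog (-0.47 and -0.37, adjusted p = 0.0599 and 0.0533). *pou5f3.3.L* and *pou5f3.3.S* were called higher in frog 2, at 0.24 and 0.23 beside the median of 0.16, where 2633 of 20277 genes were called higher. After control injection *pou5f3.1.S* fell in both frogs, by 0.94 and 1.05 (adjusted p = 0.00284 and 0.000184).

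Early neural genes, which act in the tissue where *sox2* comes on, were lower in part. In the window scheme at 7.5 hpf 6 of 20 tested copies were called lower in frog 1 and 8 of 20 in frog 2, and none higher, with list medians of -0.24 and -0.64 beside 0.06 and 0.03 over all genes. *foxd4l1.1.L*, a transcription factor of the early neural ectoderm, was called in both frogs, at -1.07 in frog 1 and -1.64 in frog 2. In the persistent scheme 4 and 8 of 20 were called lower, with 0 and 1 higher. *otx2.L* and *irx3.L* were among those called in both frogs. List medians were -0.29 and -0.47 beside 0.08 and 0.16 over all genes. After control injection 10 and 7 of 20 were called lower, and *irx1.S* fell by 2.40 and 1.93 in frogs 1 and 2. The list medians after it were -0.59 and -0.49, beside -0.04 and -0.03 over all genes. Of all genes tested, 0.579% and 1.87% were called lower in the window scheme of frogs 1 and 2. Such shares were 0.641% and 2.19% in the persistent scheme and 1.47% and 1.02% after control injection. The list was chosen with earlier results of these data known. In wild type from 5.5 to 7.5 hpf, 19 of its 20 copies were called higher in frog 1 and 13 of 20 in frog 2. Of all genes 56.2% and 8.37% were, so that all genes are not a like set. Shares among genes that rise in wild type were not computed.

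Genes of the other germ layers were read as markers of mesoderm and endoderm, whose cells lie beside the ectoderm in a whole embryo. In the window scheme 11 of 22 tested copies were called lower in frog 1 and 5 of 19 in frog 2, with *tbxt.S*, *wnt8a.L*, *gata6.S* and *gata5.L* called in both, beside 0.579% and 1.87% of all genes. The list medians were -0.86 and -0.34, and those of all genes 0.06 and 0.03. In the persistent scheme 7 of 22 and 10 of 19 were lower, beside 0.641% and 2.19% of all genes. The list medians were then -0.66 and -0.51 beside 0.08 and 0.16 over all genes. This list was also chosen with earlier results known, and all genes are not a like set for it. In wild type from 5.5 to 7.5 hpf, 22 of its 22 copies were called higher in frog 1 and 16 of 19 in frog 2. In these bulk samples fewer cells of a type and less RNA per cell cannot be told apart.

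Of the Ventx and POU list, 2 of 16 tested copies were lower in the window scheme of frog 1 and 7 of 16 in frog 2, with *ventx1.1.S* at -1.04 and -0.97 and list medians of -0.23 and -0.38. Of the genes that control Nodal signalling, 0 and 1 of 18 were lower, with medians of 0.12 and 0.02. Of the other Sox genes, 1 of 19 was lower in frog 1 and 3 of 16 in frog 2, with medians of 0.05 and -0.11. Over all genes 0.579% and 1.87% were called lower, with medians of 0.06 and 0.03, but all genes are not a like set. In wild type from 5.5 to 7.5 hpf, 16 of 16 and 12 of 16 copies of the Ventx and POU list were called higher. The counts were 18 of 18 and 12 of 18 for Nodal control, and 15 of 19 and 7 of 16 for the other Sox genes. Of all genes 56.2% and 8.37% were. The Ventx and POU list includes the *pou5f3* copies given above, so that its counts repeat them. These lists too were chosen with earlier results of these data known.

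Over the 15 group means, the copies of *sox3* resembled each other (Pearson's r = 0.97 in frog 1 and 0.93 in frog 2). *sox2.L* followed *sox3.L* in frog 1 (r = 0.92) and not in frog 2 (r = -0.05). These correlations are descriptions over groups that share stages and libraries.

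Among 17776 genes averaging 1 TPM or more in both frogs, the most similar to *sox3.L* was *h3-3b.L*, a gene for histone H3.3, with a mean r of 0.96 over the frogs. *sox3.S* came next at 0.95, and LOC108710855 at 0.93. For *sox3.S* the list was *sox3.L*, LOC108710855 and *h3-3b.L*, at 0.95, 0.89 and 0.89. The H3.3 genes may share reads with the injected H3.3 mRNA, which wild type embryos lacked. The median r of all genes was 0.58 with *sox3.L* and 0.45 with *sox3.S*.

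The pattern most like *sox2.L* was that of *zic1.L*, a zinc finger factor of the neural plate, at a mean r of 0.96. LOC108698141 and LOC108715571 followed at 0.96 each. Here the median over all genes was -0.13.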

How the data were processed

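Ribosomal RNA was depleted from total RNA and stranded libraries were sequenced. Per the labels and the study's methods, the authors assigned reads to Xenopus laevis v10.1 transcripts with kallisto 0.48, added up transcripts per gene and deposited the TPM, without scaling between libraries. A change in a few abundant RNAs therefore shifts all other values.

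Entries sharing a gene name were summed. Genes reaching 1 TPM in 3 or more libraries of a frog entered the fit (20891 and 20277 genes). limma 3.58.1 (R 4.3.3) modelled log2(TPM + 1) with 1 mean for each of 15 groups, 30 residual degrees of freedom and a mean-variance trend. Two-sided p-values were adjusted by Benjamini-Hochberg over all genes of a contrast. Fold changes on this scale understate those of low genes. A joint fit over 19581 genes gave means and differences of the frogs, with p-values that rest on the spread between pools within each frog. The fit was tested on simulated data. The study used DESeq2 1.42.1 on counts, which TPM do not allow.

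The genes, gene lists and alternatives were chosen with earlier results of these data known. Named were the members, copies of *pou5f3.1*, *pou5f3.2* and *pou5f3.3*, up to 4 copies per list called with 1 sign in both frogs at 7.5 hpf, and the 3 genes most like each member. Some genes that this rule names are not reported here. *sox1.S* and *sox21* were added after their values were seen. No table column was left unmapped.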

Additional observations from a re-analysis of the deposited data

Results flagged for a closer look

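In the joint fit, 15 of 81 differences between the frogs passed the threshold, all in copies of *sox3*. Frog and experiment cannot be told apart in them. The share of all genes that passed in the same contrasts was not counted. For *sox3.L*, frog 2 minus frog 1, the change from 5.5 to 7.5 hpf differed by -1.09 in wild type embryos, -0.90 in control embryos without auxin, -1.15 in treated embryos without auxin and -0.92 in treated embryos with auxin, and the change from 5.5 to 6.5 hpf in wild type by -0.88. For *sox3.S* the same differences were -1.28, -1.09, -1.43 and -1.12, and -0.92 for the earlier step, and the change in control embryos with auxin differed by -0.38. The effect of auxin in control embryos at 5.5 hpf differed by -0.47 (*sox3.L*) and -0.40 (*sox3.S*), and that of control injection at 6.5 hpf by 0.58 and 0.54. The median change of all genes differed between the frogs in the same contrasts. In wild type from 5.5 to 7.5 hpf it was 0.39 in frog 1 and -0.69 in frog 2. Over the same time it was 0.34 and -0.72 in control embryos without auxin. In treated embryos it was 0.53 and -0.59 without auxin, and 0.24 and -0.62 with it. For auxin in control embryos at 5.5 hpf it was 0.29 and -0.01, and for control injection at 6.5 hpf -0.25 and 0.02. Its part in these differences was not tested beyond the values given for rescaled libraries.

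None of 30 tests of a difference between schemes or stages passed for a member, and in none of 45 sets, 15 groups for each of 3 genes, did a library stand apart. Each set held the 6 libraries of both frogs, so the range used to judge a library included the gap between frogs. For *sox3.L* in wild type at 5.5 hpf, pools ran from 219 to 260 TPM in frog 1 and from 432 to 475 TPM in frog 2. The test therefore does not decide whether a pool stood apart within 1 frog, which was not tested. In frog 2, wild type pools of *sox3.L* at 6.5 hpf held 507, 365 and 486 TPM, and this set was not flagged.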

How the results depend on the processing

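The window, persistent and injection comparisons at 7.5 hpf and wild type from 5.5 to 7.5 hpf were counted first. There 279 alternative values kept direction and call, 17 turned, 16 gained and 16 lost a call. Of the alternatives for the other comparisons, 506 stayed the same, 24 turned, 3 gained and 53 lost a call, and 22 counts of called members moved. Fitting both frogs jointly gave window changes of -0.14 (*sox3.L*) and -0.19 (*sox3.S*), a persistent change of -0.055 for *sox3.L*, injection changes of -0.35 (*sox3.L*) and -0.91 (*sox2.L*) at 7.5 hpf and -0.20 and -0.14 (*sox3.L*, *sox3.S*) at 6.5 hpf, auxin changes in control of 0.087 and 0.065 at 5.5 hpf and 0.22, 0.18 and 0.11 (*sox2.L*) at 6.5 hpf, and wild type changes of *sox3* of 0.58 and 0.70 to 7.5 hpf and 0.41 (*sox3.L*) to 6.5 hpf. Median-ratio rescaling gave -0.056 (window, *sox3.S*), -0.068 (persistent, *sox3.L*), -0.23 (injection at 7.5 hpf, *sox3.S*, called) and -0.019 and -0.078 (auxin in control at 5.5 hpf) in frog 1, and -0.33 for both *sox3* copies (persistent), 0.84 and 0.87 (wild type to 7.5 hpf) and 0.37 (to 6.5 hpf, *sox3.L*) in frog 2. Protein-coding genes alone gave -0.0066 (window, *sox3.S*), -0.013 (persistent, *sox3.L*) and -0.25 (injection, *sox3.S*) in frog 1, and -0.28 (injection, *sox3.L*), 0.42 and 0.44 (wild type to 7.5 hpf) and 0.18 (to 6.5 hpf) in frog 2. Without globin, H3.3 and ribosomal RNA genes, injection gave -0.27 (*sox3.S*, frog 1) and -0.31 (*sox3.L*, frog 2), and *sox3.L* to 6.5 hpf 0.039. Summed copies gave -0.011 (persistent, frog 1), -0.36 (injection, frog 1) and -0.0067 (wild type to 6.5 hpf, frog 2). With only the libraries compared, calls were lost at -0.44 and -1.09 (injection, *sox3.L* and *sox2.L*, frog 1) and at -0.38 and -0.40 (window, *sox3*, frog 2), where fewer libraries set the spread, and a constant of 0.1 gave -1.41 for *sox2.L* (injection, frog 1). For the other changes the cause was not tested.

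With 1 replicate left out, frog 1 values ran from -0.074 to 0.11 (window, *sox3.S*), -0.024 to 0.12, -0.11 to 0.0063 and -0.67 to 0.063 (persistent, *sox3.L*, *sox3.S*, *sox2.L*), -0.54 to -0.37 and -1.43 to -0.60 (injection at 7.5 hpf, *sox3.L*, *sox2.L*) and -0.0057 to 0.73 (auxin in control at 6.5 hpf, *sox2.L*). Frog 2 values ran from -0.45 to -0.33 and -0.43 to -0.36 (window, *sox3.L*, *sox3.S*), -0.36 to 0.18 (persistent, *sox2.L*), -0.095 to 0.19, -0.096 to 0.26 and -0.17 to 0.12 (injection at 6.5 hpf, in the same gene order), -0.025 to 0.0085 and -0.22 to 0.15 (auxin in control at 6.5 hpf, *sox3.L*, *sox2.L*), -0.017 to 0.12 (wild type to 7.5 hpf, *sox3.L*) and -0.16 to 0.13 and -0.10 to 0.23 (to 6.5 hpf, *sox3*). Within these ranges, calls or signs also changed at 0.053 (persistent, *sox2.L*) and -1.25 (injection, *sox2.L*) in frog 1, and at -0.39 (window, *sox3.S*), 0.039 (injection at 6.5 hpf, *sox2.L*), -0.0060 (wild type to 7.5 hpf, *sox3.L*) and -0.059 (to 6.5 hpf, *sox3.S*) in frog 2. Genes called in the window scheme of frog 2 numbered 638, and 19 without replicate 2.2, 41 with only the libraries compared and 1701 with protein-coding genes alone.

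Pool numbers did not pair the libraries. Of 36 same-numbered pairs, 0 correlated over 0.1 (r from -0.091 to 0.081), and 12 libraries matched their own number best. In the fit with pool as replicate block, the window changes of *sox3.L* and *sox3.S* in frog 2 had limma adjusted p of 0.00788 and 0.0168, with 623 genes called, and no call of a member at 7.5 hpf changed.

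*sox2.L* reached at most 7.47 TPM, and unknown depth limits its precision.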
